A study of Mus musculus with 14 samples.

Results

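Of 9482 Gfi1 peaks called by ChIP-seq in Hoxb8-FL cells, 3515 overlapped no Gfi1b peak by even 1 bp (37.1%, exact Clopper-Pearson 95% interval 36.1% to 38.1%). These 3515 regions are described here and set against the other 5967 Gfi1 peaks, which overlapped Gfi1b and are called shared. Each member and each shared peak came from the same Gfi1 library. Members were chosen by their presence in the Gfi1 list and absence from the Gfi1b list, so the position of the 2 factors relative to each other is given as a description only.

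Hoxb8-FL is a mouse line of multipotent blood progenitors, labelled as resembling lymphoid-primed multipotent progenitors (LMPP-like) and cultured in estradiol and FLT3. All libraries came from this untreated line, with no mutant or second condition. The study held 1 ChIP library for each of 13 factors (Gfi1, Gfi1b, the ETS factors Erg, Fli1 and Spi1, the bHLH factors Tal1 and Lyl1 with their adaptor Lmo2, Runx1, Meis1, Gata2, Cebpa and Cebpb) and a rabbit IgG library whose peaks were not analysed here. Cells were fixed for 10 min at 0.4% or 1% formaldehyde, and the concentration used for Gfi1 or Gfi1b is not stated in the labels. The Gfi1 and Gfi1b antibodies came from different suppliers. The lists hold positions only, each peak 400 bp wide, so depth and peak height are unknown, and they hold no expression against which the labelled cell type could be checked. With 1 library per factor there is no replicate: intervals cover counting error only, no p-value is given, and 2 shares are said to differ where the Newcombe 95% interval of their difference leaves out 0. At a member, a lack of Gfi1b binding and binding too weak to be called in the Gfi1b library cannot be told apart.

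Gfi1 and Gfi1b are related zinc finger repressors with nearly identical DNA-binding fingers and a shared SNAG domain, through which they recruit the histone demethylase Kdm1a (LSD1) and its partner CoREST. Both recognise sites around the core AATC. Gfi1 is best known in granulocytic, lymphoid and stem cell control, and Gfi1b in the erythroid and megakaryocytic lineages, and each can repress its own and the other's gene.

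The promoters below show the Gfi1 core where a peak midpoint fell in a start region. Each line gives the 250 bases before a transcription start, 5′ to 3′ on the gene's strand, from RefSeq on GRCm38.p6, with every AATC and its reverse complement GATT in capitals. The first 5 hold the midpoint of a Gfi1 peak without Gfi1b and the last 3 that of a shared peak. The ETS sequence CGGAAG and its reverse complement CTTCCG are in capitals too, where present. Mpo encodes myeloperoxidase of neutrophil granules, Hlf a PAR bZIP factor of blood stem cells, Tbp the TATA-binding protein, Slc24a2 a sodium/calcium/potassium exchanger and Rpl18 a ribosomal protein. Gfi1b, Meis1 and Csf1, the macrophage growth factor gene, are known targets of Gfi1 proteins. Rpl18 was chosen after its values were seen, as a member with many factors and no core.
Mpo (chr11:87793534-87793783, plus strand): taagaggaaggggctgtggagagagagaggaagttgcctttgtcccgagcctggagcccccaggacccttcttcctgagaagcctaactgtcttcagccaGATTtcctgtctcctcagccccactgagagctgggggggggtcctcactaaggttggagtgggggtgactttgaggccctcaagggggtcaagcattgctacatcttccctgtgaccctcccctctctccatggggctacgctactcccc
Hlf (chr11:90390918-90391167, minus strand): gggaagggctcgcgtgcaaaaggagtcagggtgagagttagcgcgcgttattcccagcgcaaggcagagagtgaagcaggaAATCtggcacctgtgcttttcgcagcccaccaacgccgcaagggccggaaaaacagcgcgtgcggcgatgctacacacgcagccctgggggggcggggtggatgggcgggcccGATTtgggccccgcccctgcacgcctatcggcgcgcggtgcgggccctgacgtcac
Tbp (chr17:15499638-15499887, plus strand): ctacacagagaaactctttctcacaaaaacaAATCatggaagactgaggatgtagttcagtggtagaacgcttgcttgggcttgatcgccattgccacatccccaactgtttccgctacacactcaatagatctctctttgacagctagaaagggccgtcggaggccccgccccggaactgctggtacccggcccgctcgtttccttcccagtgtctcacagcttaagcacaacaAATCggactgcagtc
Slc24a2 (chr4:87230541-87230790, minus strand): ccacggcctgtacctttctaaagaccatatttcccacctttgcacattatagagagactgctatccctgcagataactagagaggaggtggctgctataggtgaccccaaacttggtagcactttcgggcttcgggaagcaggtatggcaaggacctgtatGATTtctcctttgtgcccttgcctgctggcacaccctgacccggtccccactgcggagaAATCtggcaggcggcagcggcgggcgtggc
Rpl18 (chr7:45717821-45718070, plus strand): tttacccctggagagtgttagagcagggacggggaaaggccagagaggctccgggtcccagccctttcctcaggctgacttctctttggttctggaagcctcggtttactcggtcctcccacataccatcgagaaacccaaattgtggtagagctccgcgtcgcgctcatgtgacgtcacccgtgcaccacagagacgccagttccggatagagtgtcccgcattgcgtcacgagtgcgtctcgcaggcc
Gfi1b (chr2:28621983-28622232, minus strand): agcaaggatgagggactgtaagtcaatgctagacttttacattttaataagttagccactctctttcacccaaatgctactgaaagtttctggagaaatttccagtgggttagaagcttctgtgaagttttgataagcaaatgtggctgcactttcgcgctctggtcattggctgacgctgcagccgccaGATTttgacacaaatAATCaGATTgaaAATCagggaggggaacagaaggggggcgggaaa
Csf1 (chr3:107760470-107760719, minus strand): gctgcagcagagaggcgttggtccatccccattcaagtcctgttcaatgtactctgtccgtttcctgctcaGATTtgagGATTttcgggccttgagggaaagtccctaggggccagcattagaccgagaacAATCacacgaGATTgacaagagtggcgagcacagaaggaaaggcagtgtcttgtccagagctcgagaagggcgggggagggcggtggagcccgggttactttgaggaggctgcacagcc
Meis1 (chr11:19018970-19019219, minus strand): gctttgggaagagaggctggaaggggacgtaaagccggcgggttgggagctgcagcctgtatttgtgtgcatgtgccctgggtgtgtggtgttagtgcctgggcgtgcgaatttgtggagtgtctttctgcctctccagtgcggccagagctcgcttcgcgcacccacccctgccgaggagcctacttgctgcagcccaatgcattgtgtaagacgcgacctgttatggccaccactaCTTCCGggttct
The Gfi1b and Csf1 stretches hold 4 cores each and the Meis1 stretch 0. Of the other shared promoters taken by the same rule, and not printed, Prdm1 holds 4 in its stretch and Mmp8 holds 2. Among the members' stretches, Hlf, Tbp and Slc24a2 hold 2 each, Mpo holds 1 and Rpl18 holds 0. Single promoters thus vary in both classes. Itga2b, a further member by the rule and not printed, holds 1. The midpoint of the Mpo peak lay 178 bp before the start, and that peak overlapped 9 other factors. The Rpl18 peak, 56 bp before the start, overlapped 7 and the Tbp peak, 51 bp before it, 9. The Hlf peak, 139 bp before the start, overlapped Cebpa and Cebpb alone, and the Slc24a2 peak, 59 bp before it, overlapped none.

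Most members lay far from any Gfi1b peak. The gap to the nearest one had a median of 31.6 kb, with quartiles of 9.19 kb and 84.7 kb and a maximum of 6074 kb. Only 194 members (5.52%) had a Gfi1b peak within 1 kb, and 25 had one within 200 bp, while 753 (21.4%) had none within 100 kb. The members nearest to the limit missed Gfi1b by 2 bp (near Tekt3), 15 bp (near Snrnp35) and 37 bp (near 1700017B05Rik). The shared peaks nearest to it overlapped Gfi1b by 7 bp (in Atp8b2), 14 bp (in Pdpn) and 19 bp (near B3gnt7). Few shared peaks were so close to the limit: the median overlap was 378 bp, and 99.3% overlapped by 200 bp or more. Members were often close to other Gfi1 binding all the same, since 685 (19.5%) lay within 10 kb of a shared Gfi1 peak and 1748 (49.7%) within 50 kb.

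Members were concentrated late in the Gfi1 file. In its first 10% of lines, 17 of 948 peaks (1.79%) lacked Gfi1b, and the share climbed in every step of 10% to 666 of 949 (70.2%) in the last. The median member stood 70.8% of the way through the file and the median shared peak 35.4%. What the order of lines means is not stated in the files or labels. Because the classes stand at such different positions, co-binding, location and the Gfi1 core are also given with the shared peaks weighted to the members' positions in the file, in 10 equal steps (3 for the core), an alternative added after the data were seen. Other motifs were weighted in 3 steps as well, which moved none of them across the threshold. Combinations, midpoint distances, the split by gene distance and loci are not so weighted.

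**Figure D1:**
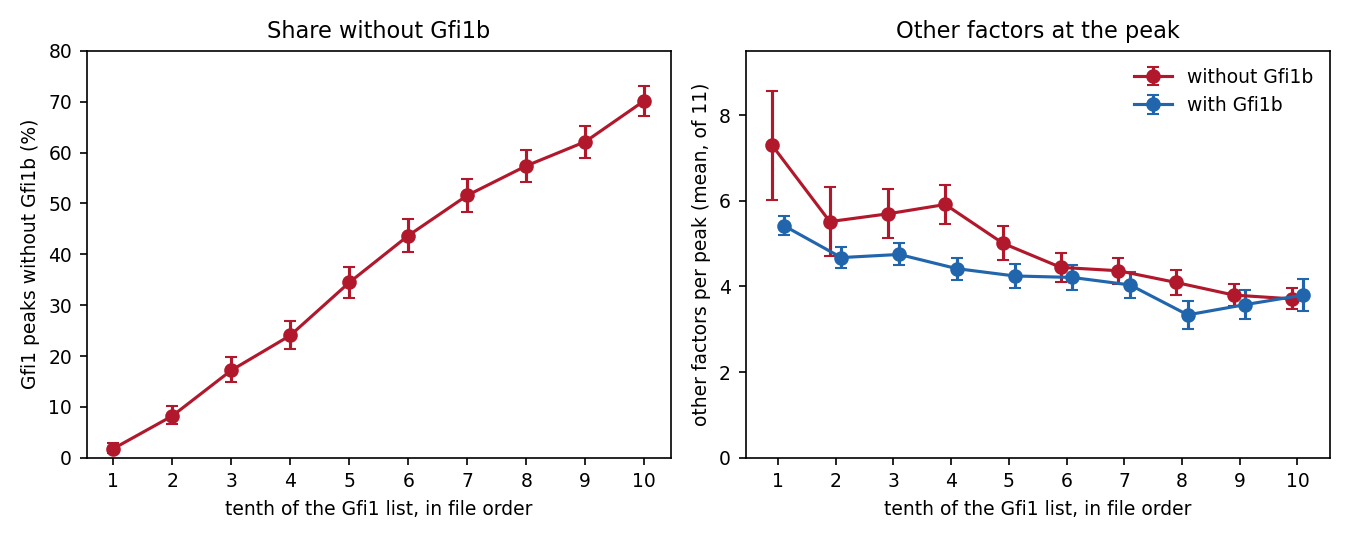
Left, the percentage of Gfi1 peaks without Gfi1b in each step of 10% of the list in file order, with exact 95% intervals; right, the mean number of the 11 other factors at each peak, without (red) and with (blue) Gfi1b, bars being 95% normal intervals over peaks. The share climbs from 1.79% to 70.2%, and the red mean is above the blue in 9 of the 10 steps. In steps 6, 7, 9 and 10 the 95% interval of the difference in means includes 0.

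Pooled over the file, Gfi1 peaks without Gfi1b were about as crowded with other factors as shared ones. Members overlapped a mean of 4.37 ± 3.47 of the 11 other factors (SD over 3515 peaks) and shared peaks 4.44 ± 3.54 (SD over 5967 peaks), a difference of -0.06 (95% interval -0.21 to 0.08). Both distributions were highest at 0 factors and had a second rise at 9 factors (12.1% of members and 10.0% of shared peaks). No other factor was found at 690 members (19.6%), 1 to 3 at 941 (26.8%), 4 to 7 at 949 (27.0%) and 8 to 11 at 935 (26.6%). None of these 4 shares differed from that of shared peaks. After the peaks with no partner, the most frequent combination at members was 9 factors together, all but Gata2 and Meis1, at 259 (7.37%, against 5.40% of shared peaks). The same set with Meis1 added was found at 200 members (5.69%, against 8.23%). Spi1 alone made up 221 members (6.29%, against 6.94%). The 9-factor set was thus more frequent and the 10-factor set less frequent at members, with differences of 1.97 points (0.956 to 3.03) and -2.54 points (-3.56 to -1.48).

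**Figure D2:**
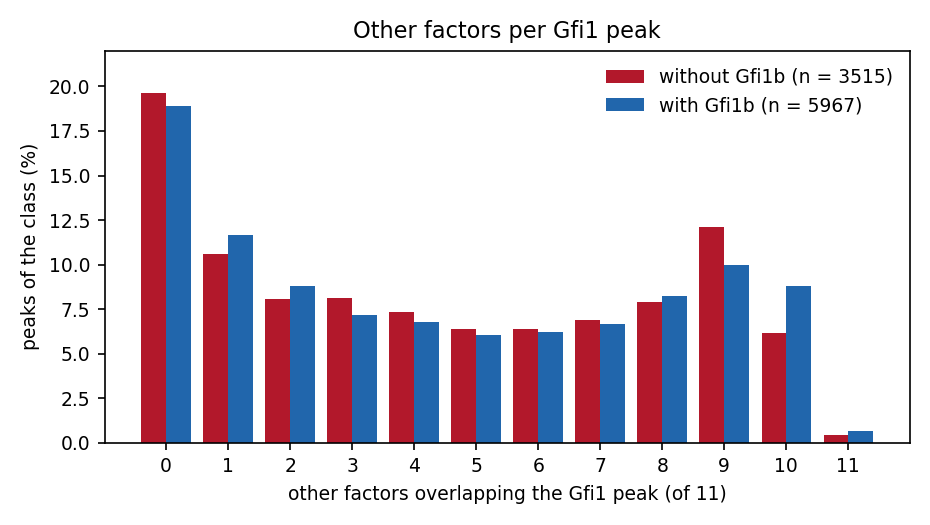
Percentage of Gfi1 peaks without (red) and with (blue) Gfi1b by the number of the 11 other factors whose peaks they overlap. Both classes are highest at 0 factors (19.6% and 18.9%), and members have a second rise at 9 factors (12.1%, against 10.0%).

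By factor, Spi1 (PU.1, the ETS factor of myeloid and lymphoid cells) was the most frequent partner, at 58.2% of members, where 59.4% of all Gfi1 peaks had it. The adaptor Lmo2 was at 55.5% (56.3% of all Gfi1 peaks) and the ETS factor Fli1 at 52.4% (51.5%). Of the bHLH factors, Tal1 was at 42.1% (42.4%) and Lyl1 at 36.2% (35.4%). Runx1 was at 38.4% (38.1%) and the ETS factor Erg at 33.5% (31.6%). The myeloid bZIP factors Cebpb and Cebpa were at 50.6% (51.1%) and 48.2% (48.4%). Gata2 was at 82 members (2.33%, against 2.59% of all Gfi1 peaks). Meis1, the homeodomain partner of Hox proteins, was at 20.1% (24.2%).

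Only 2 of the 11 factors differed between the classes when all positions were pooled. Meis1 was at 20.1% of members and 26.6% of shared peaks, a difference of -6.56 points (-8.28 to -4.81). Erg was at 33.5% and 30.6%, a difference of 2.87 points (0.930 to 4.83). Both intervals still left out 0 when widened for 11 factors. The other 9 differences lay between -1.93 points for Spi1 and 1.54 points for Fli1.

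At matched file position the picture changed: 8 of the 11 factors were more frequent at Gfi1 peaks without Gfi1b and none was less frequent. The mean number of other factors was then 4.37 at members and 3.92 at shared peaks, a difference of 0.45 (0.28 to 0.62). The gaps were widest for Erg and Fli1, with Erg at 33.5% of members and 25.7% of weighted shared peaks (7.80 points, 5.59 to 10.0) and Fli1 at 52.4% and 44.7% (7.72 points, 5.26 to 10.2). Lyl1 was 6.92 points higher (4.62 to 9.21), Runx1 5.95 points higher (3.61 to 8.30), Tal1 5.15 points higher (2.75 to 7.54), Lmo2 4.24 points higher (1.77 to 6.71), Cebpa 4.19 points higher (1.73 to 6.65) and Cebpb 3.26 points higher (0.784 to 5.73). The Meis1 difference shrank to -1.81 points (-3.80 to 0.181). Spi1, at 1.47 points (-0.987 to 3.92), and Gata2, at 0.166 points (-0.552 to 0.884), did not differ.

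The direction was the same within each of 3 equal parts of the file, compared without weights. In the first part (330 members, 2830 shared peaks) 7 factors were more frequent at members, in the second (1221 and 1940) 7, and in the last (1964 and 1197) 5, with none less frequent in any. Erg was at 52.1% of members and 35.3% of shared peaks in the first part, at 39.7% and 28.4% in the second and at 26.4% and 23.1% in the last. Fli1 and Lyl1 were likewise higher in all 3 parts, and Runx1 in the first and second. With intervals widened for 11 factors, 6, 5 and 1 factors were still more frequent at members in the 3 parts. In the last part that was Fli1 alone, as Erg (-1.17 to 7.75) and Lyl1 (-0.286 to 9.01) then included 0.

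**Figure D3:**
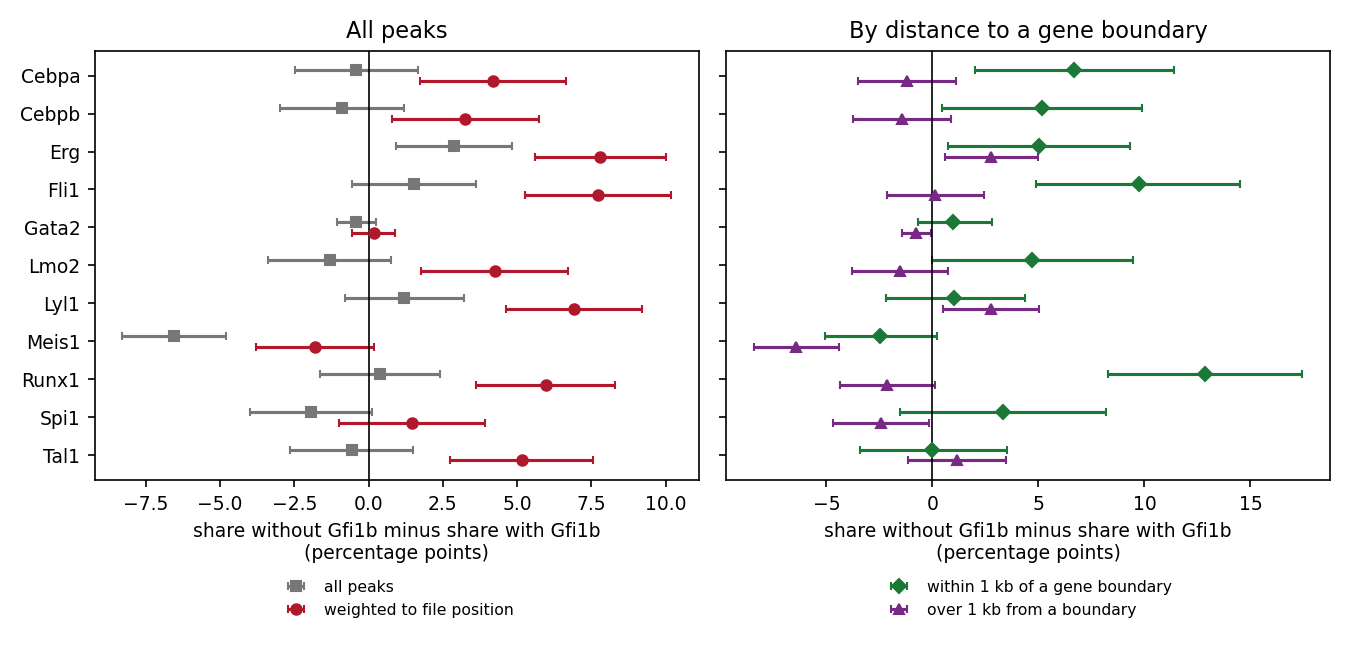
Share of Gfi1 peaks without Gfi1b that overlap each factor minus the share of those with Gfi1b, in percentage points, with 95% intervals. On the left are all peaks (grey) and the comparison weighted to file position (red), which lies above 0 for 8 factors; on the right are peaks within 1 kb of a gene boundary (green) and farther away (purple), where Runx1 is at 12.9 points near a boundary and -2.13 points beyond it.

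Where partners were present, the peak midpoints of 6 of the 11 lay close to that of Gfi1 more often at members than at shared peaks, file position not being matched here. The midpoint of the Tal1 peak was within 50 bp of the Gfi1 midpoint at 64.4% of 1479 members with Tal1 and at 55.4% of 2545 shared peaks (8.97 points, 5.83 to 12.1). For Lyl1 the shares were 67.6% and 59.6% (7.95 points, 4.60 to 11.2), for Lmo2 62.5% and 57.1% (5.37 points, 2.64 to 8.07) and for Erg 62.3% and 57.0% (5.34 points, 1.74 to 8.90). Smaller gaps separated Cebpb (3.40 points, 0.495 to 6.31) and Fli1 (3.32 points, 0.456 to 6.16). Spi1 midpoints were spread more widely, with 44.2% of 2047 members and 43.8% of 3590 shared peaks within 50 bp. The values for Cebpa, Gata2, Meis1 and Runx1 did not differ either. At shared peaks the Gfi1b midpoint itself lay a median of 22 bp from that of Gfi1.

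Gfi1 peaks without Gfi1b were more often at gene ends. A peak midpoint lay within 1 kb of a boundary of a protein-coding gene for 715 members (20.3%) and 944 shared peaks (15.8%), where 17.5% of all Gfi1 peaks did (4.52 points, 2.91 to 6.16; 3.32 points, 1.38 to 5.26, at matched file position). Midpoints within 1 kb of a RefSeq transcription start made up 20.8% of members and 16.5% of shared peaks (4.27 points, 2.62 to 5.95). More members also lay inside a gene, 55.8% against 52.5% (3.34 points, 1.26 to 5.41; 2.52 points, 0.0538 to 4.99, at matched file position). That call was lost in the first 50% of the Gfi1 list (1.51 points, -2.27 to 5.25), in the first 50% of every list (2.16 points, -0.821 to 5.12) and with all genes of the reference (1.73 points, -0.278 to 3.73). Fewer members lay over 100 kb from a gene boundary, 9.62% against 11.1%. The excess sat close to the boundary. Of the 1152 Gfi1 peaks under 0.5 kb from one, 46.4% lacked Gfi1b (43.5% to 49.4%), whereas from 0.5 kb outward every distance class was between 33.8% and 37.3%. In the last of the 3 parts of the file the difference in peaks within 1 kb was 2.78 points (-0.0326 to 5.51) and did not leave out 0.

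**Figure D4:**
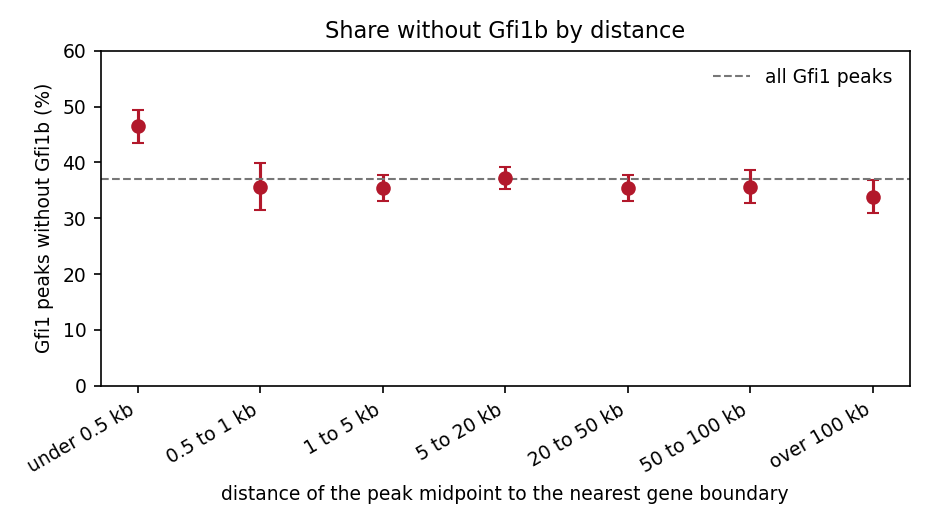
Percentage of Gfi1 peaks without Gfi1b by distance of the peak midpoint to the nearest boundary of a protein-coding gene, with exact 95% intervals; the dashed line is the share over all Gfi1 peaks (37.1%). The class under 0.5 kb stands at 46.4% and all others at or below 37.3%.

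Near gene ends, members exceeded shared peaks in Runx1, Fli1 and Cebpa, while beyond 1 kb the classes did not differ in these 3 factors. Among peaks within 1 kb of a boundary, Runx1 was at 40.8% of 715 members and 28.0% of 944 shared peaks (12.9 points, 8.26 to 17.4), Fli1 at 50.2% and 40.5% (9.74 points, 4.91 to 14.5) and Cebpa at 40.3% and 33.6% (6.70 points, 2.02 to 11.4). Cebpb and Erg were also higher, by 5.17 points (0.429 to 9.90) and 5.01 points (0.739 to 9.32). With intervals of these near-gene differences widened for 11 factors, only Runx1 and Fli1 still left out 0. The intervals for Cebpa, Cebpb and Erg then included 0, with lower ends of -0.0683, -1.68 and -1.15 points. The mean number of other factors there was 3.34 ± 2.74 (SD) at members and 2.87 ± 2.85 at shared peaks, a difference of 0.47 (0.20 to 0.74). Meis1 was at 6.85% of members and 9.32% of shared peaks there (-2.47 points, -5.07 to 0.222). Tal1 and Lyl1 were at 14.8% and 13.4% of members and differed little between the classes, by -0.00533 points (-3.42 to 3.50) and 1.03 points (-2.19 to 4.36). Beyond 1 kb, Runx1 was at 37.8% of 2800 members and 39.9% of 5023 shared peaks (-2.13 points, -4.37 to 0.130). The Fli1 shares differed by 0.143 points (-2.16 to 2.45) and those of Cebpa by -1.21 points (-3.52 to 1.10). Meis1 was at 23.5% and 29.9% (-6.44 points, -8.44 to -4.40). The near difference exceeded the distant one by 15.0 points for Runx1 (9.87 to 20.1), 9.60 points for Fli1 (4.24 to 14.9) and 7.91 points for Cebpa (2.69 to 13.1), and these 3 also left out 0 when widened for 11 factors. The excess near genes was found among members with partners: 30.7% of those with 1 to 3 partners lay within 1 kb (23.2% of shared peaks with as many) and 23.7% of those with 4 to 7 (14.8%). With no partner the shares were 18.3% and 21.5%, which did not differ, and with 8 to 11 they were 8.02% and 5.50% (2.52 points, 0.541 to 4.69).

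The Gfi1 core was less frequent in promoters under members than under shared peaks. Windows of 300 bp around RefSeq transcription starts, 28932 that did not overlap each other, were searched on both strands. A Gfi1 peak midpoint without Gfi1b fell in 307 of them and a shared midpoint in 326. The core AATC was present in 74.3% of the 307 (69.0% to 79.1%) and 94.2% of the 326 (91.0% to 96.5%), a difference of -19.9 points (-25.5 to -14.4). Of all windows 73.9% held it, and of the 28299 with no Gfi1 midpoint 73.7%, a difference from members of 0.607 points (-4.59 to 5.21) without regard to GC. Longer forms that contain the core gave the same order. AAATCA was in 14.0% of member windows and 28.2% of shared ones (14.5% of all windows), and AATCAC in 12.1% and 24.8% (10.5% of all windows). All 3 differences also left out 0 when widened for the 12 motifs searched. A match is a description of letters and not a mapped site, and a window without one says only that these letters are not in it.

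The cores of shared peaks, unlike those of members, gathered around the midpoint. At shared peaks the core occurred 12.003 times per kb within 50 bp of the midpoint and 5.56 times per kb farther out in the window. At members the corresponding densities were 4.99 and 4.77 per kb. The ETS sequence CGGAAG showed the opposite layout, with 2.53 matches per kb within 50 bp and 1.40 farther out at members, and 1.36 and 1.44 at shared peaks. That rests on 73 matches within 50 bp at members and 41 at shared peaks, and no interval is given for any of these densities. CGGAAG was present in 36.5% of member windows and 29.4% of shared ones, a difference of 7.03 points (-0.285 to 14.3) that did not leave out 0, where 15.6% of all windows held it. In the 3 parts of the file the difference was -6.77 points (-19.0 to 7.90), 13.6 points (0.746 to 26.1) and 9.33 points (-3.94 to 21.1). Both classes exceeded the windows with no Gfi1 midpoint (15.2%), members by 21.3 points (16.1 to 26.8). GC content moved with the classes, and its part in the motif counts was not tested beyond a split: its median was 59.3% in member windows, 57.7% in shared ones and 52.0% in those with no Gfi1 midpoint. Within the windows of lower GC (at or under 58.0%) the core difference was -13.7 points (-20.7 to -7.50) and within those of higher GC -24.6 points (-33.0 to -15.6). For AATCAC the differences were -14.4 points (-23.0 to -5.39) and -10.5 points (-18.6 to -2.47). AAATCA differed at lower GC (-22.9 points, -32.1 to -12.8). At higher GC it did not, with 9.82% of member windows and 13.1% of shared ones (-3.26 points, -10.5 to 3.84). In the windows of higher GC, member windows also exceeded those with no Gfi1 midpoint: AATC was in 65.6% against 53.7% (11.9 points, 4.28 to 18.9), AAATCA in 9.82% against 3.84% and AATCAC in 10.4% against 5.31%. In those of lower GC none of the 3 differed, with AATC in 84.0% and 82.7%. The excess of CGGAAG in member windows over those with no Gfi1 midpoint was 19.6 points (12.8 to 27.5) at lower GC and 15.3 points (7.89 to 23.0) at higher GC.

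Members that no other factor accompanied mostly held the core. Of 33 member windows whose peak overlapped none of the 11 other factors, 30 held AATC (90.9%, 75.7% to 98.1%), against 51 of 54 shared windows of the same kind (94.4%). Of the 274 member windows with 1 or more other factors, 198 held it (72.3%, 66.6% to 77.5%), against 256 of 272 shared ones (94.1%). Among members the difference between accompanied and unaccompanied windows was -18.6 points (-26.8 to -3.34), and it exceeded that among shared peaks by -18.3 points (-31.1 to -2.21). AAATCA followed the same order, at 13 of 33 unaccompanied member windows (39.4%) and 30 of 274 accompanied ones (10.9%). For AATCAC the shares were 27.3% and 10.2%, but the difference did not exceed that among shared peaks beyond its interval (-13.5 points, -34.3 to 5.44). The core difference between the classes was present in each of the 3 parts of the file, at -30.3, -14.5 and -19.1 points, and was -19.6 points (-25.4 to -13.7) with shared windows weighted to file position.

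**Figure D5:**
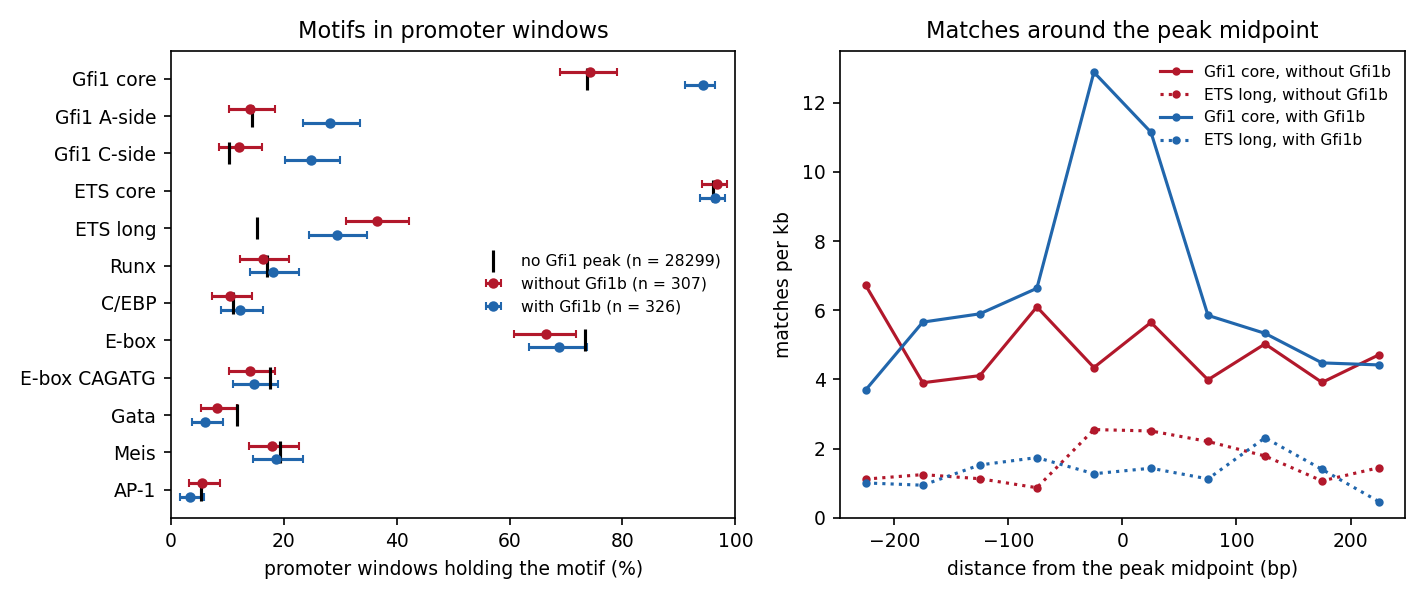
Left, percentage of promoter windows that hold each motif where a Gfi1 midpoint without (red) or with (blue) Gfi1b fell, with exact 95% intervals, and where none fell (black tick); right, matches per kb in 50 bp steps from the peak midpoint. Gfi1 A-side is AAATCA, Gfi1 C-side AATCAC and ETS long CGGAAG; the Gfi1 core (solid lines) is at 74.3% and 94.2% and has its highest density near the midpoint only in the blue class.

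The other 8 motifs did not differ between the classes. The short ETS core GGAA was in 96.7% of member windows, where 96.0% of all windows held it. The E-box CANNTG, read by bHLH proteins, was in 66.4% (73.2% of all windows). Its form CAGATG was in 14.0% (17.6% of all windows). The Meis motif TGACAG was in 17.9% (19.2% of all windows). The Runx motif TGTGGT was in 16.3% (17.1% of all windows). The C/EBP motif TTGCNNAA was in 10.4% (11.1% of all windows). The Gata motif AGATAA was in 8.14% (11.6% of all windows). The AP-1 motif TGACTCA was in 5.54% (5.38% of all windows). GGAA also counts every CGGAAG, and CANNTG every CAGATG. Of these, only the E-box differed between member windows and those with no Gfi1 midpoint, by -6.90 points (-12.4 to -1.82).

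In the locus of each gene, its body with 50 kb either side, 27.5% of 21627 protein-coding genes had at least 1 member and 37.3% a shared peak. Members were nearest to 2708 of the 21627 genes and shared peaks to 3961, with 1236 genes nearest to both. Of the 2708, 1472 (54.4%) were nearest to no shared peak, and of the 3961, 2725 (68.8%) to no member. Both shares lay below those over all coding genes, most of which had neither kind nearest. For 2127 of the 2708 genes there was a single member. The genes nearest to the most members were Zfp36l2, an mRNA-decay factor, and Runx1, with 7 each, beside 5 and 10 shared peaks. 4930519L02Rik and Prdm1 (Blimp-1), a repressor that drives plasma cell differentiation, had 6 each. With 5 members and 0 shared peaks there were 3 genes: Adgrg1 (the adhesion receptor GPR56), the ceramide synthase Cers6 and the CXXC zinc finger gene Cxxc5. Slc24a2, the corepressor gene Irf2bp2 and the Polycomb cofactor Jarid2 had 5 each as well. A nearest gene can be far away. The farthest of these members lay 545.7 kb from 4930519L02Rik, 321.7 kb from Runx1, 250.5 kb from Jarid2 and 249.3 kb from Prdm1. All 5 of Cers6 lay inside the gene, and those of Adgrg1 lay at most 9.75 kb away. The genes nearest to the most shared peaks were Zfp608 (13, with 5 members), Runx1, Lrmda (9 and 0), Foxo1 (9 and 1), Zfp703 (9 and 2), Lmo4 (9 and 4), Meis1 (8 and 0), Asap1 (8 and 1), Arhgap26 (8 and 2) and Tcf7l2 (8 and 2). Their distances varied as widely, up to 513.4 kb from Lmo4, while all 9 of Lrmda lay inside the gene. Members by the Adgrg1 gene carried 1 to 10 other factors, and those in Cers6 0 to 8.

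Known target loci of the Gfi1 proteins mostly held shared peaks. Of 24 such genes 18 had a shared peak in the locus and 9 (37.5%) a member, where 37.3% and 27.5% of all coding genes did. The 9 became 2 with 10 kb either side. Shared peaks and no member were in 12 of the 24 loci and in 4679 of all 21627 coding loci. Gfi1 (5 shared peaks, 0 members), Gfi1b (6 and 0), Meis1 (8 and 0), Egr1 (5 and 0), Hoxa9 (4 and 0), Csf1r (3 and 0) and the neighbours Rag1 and Rag2 (4 and 0 each) held shared peaks alone. The reverse was seen at 3 of the 24, where 2579 of all 21627 coding loci had members and no shared peak. The 3 were Egr2 (1 member, 30.7 kb away, and 0 shared peaks), Id1 (3 and 0) and Bcl2l1 (4 and 0). Id1, an inhibitor of bHLH proteins, and Bcl2l1, which encodes the survival protein Bcl-xL, are neighbours on chromosome 2 and 3 of these peaks are the same. The member at chr2:152741619-152742018, 4.41 kb from Id1, overlapped 9 other factors. The one at chr2:152734700-152735099, 1.35 kb from Id1, overlapped none, nor did that at chr2:152779388-152779787 inside Bcl2l1. The fourth, at chr2:152789538-152789937 inside Bcl2l1, overlapped 7. In the locus of Cdkn1a, the p21 cell cycle inhibitor, there were 3 members with 9, 10 and 11 other factors and 2 shared peaks. The nearest gene to all 3 members was Rab44, and the closest of them lay 10.8 kb from Cdkn1a. In the locus of Socs3, the cytokine signalling inhibitor, there were 3 members with 5, 7 and 9 other factors and 2 shared peaks. Among 10 genes of cofactors, 3 had members and 5 had shared peaks. Those with members were Rcor3 (2, with 1 shared peak), Hmg20b (1, with 2) and the histone methyltransferase gene Ehmt2 (1, with 0). Kdm1a, Rcor1, Hdac1 and Hdac2 had neither kind of peak. Of the 13 genes of the assayed factors, 9 had members and 10 had shared peaks. Runx1 had the most members, 5, all inside the gene, beside 5 shared peaks. Cebpb, Erg and Gata2 had 2 members each, beside 1, 4 and 2 shared peaks.

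Neutrophil granule genes had members in 9 of 12 loci and shared peaks in 5, where 27.5% and 37.3% of all coding genes did. The 9 became 4 with 10 kb either side, and 3 in the first 50% of the Gfi1 list. Mpo (3 members), Lcn2 (2), Ltf (1) and Ngp (1) had members and no shared peak, a group of 4 singled out after its values were seen. Over all coding genes, 2579 of 21627 loci had members and no shared peak. Around Mpo, the member at chr11:87793406-87793805 lay 0.178 kb from the gene and overlapped 9 factors, all but Gata2 and Meis1. A second, at chr11:87751615-87752014 and closest to Tspoap1, overlapped all 11, and another, at chr11:87853467-87853866 in Mks1, overlapped Erg, Fli1 and Spi1. Around Lcn2, the gene of an iron-binding granule protein, the 2 members at chr2:32362870-32363269 (in Ciz1) and chr2:32396012-32396411 (in Ptges2) overlapped 4 and 2 factors, Runx1 among them in both. The genes of this list that are neighbours, such as Elane and Prtn3, share peaks.

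In the remaining lists but 1, shared peaks reached more loci than members, as they did over all coding genes (37.3% against 27.5%). Members were in 7 of 15 loci of stem cell regulators (shared peaks in 10; Ikzf1 with 3 members, Zfpm1 with 2), 5 of 18 cell cycle loci (11; Ccnd3 and Cdk6 with 3 each) and 7 of 15 AP-1, Egr and Klf loci (13; Fosl2 with 4). Among lineage lists they were in 4 of 12 monocyte loci (8), 6 of 12 B cell loci (10), 5 of 12 T cell loci (6; Notch1 with 3), 5 of 12 erythroid loci (7; Epor with 3) and 5 of 12 megakaryocyte loci (7; Gp9 with 3). They were also in 6 of 13 interferon-stimulated loci (7), 10 of 20 housekeeping loci (13; Actb with 3) and 9 of 21 ribosomal protein loci (12). The exception was the list of p53 and apoptosis genes, with members in 7 of 13 loci and shared peaks in 6, where Bcl2l1 and Cdkn1a led with 4 and 3 members. Of the lists for other tissues, members were at 1 of 12 liver loci (Apob; shared peaks at 3) and 1 of 12 neuron loci (Grin1; shared peaks at 5). Counts of so few genes, some of which share loci or stand in more than 1 list, set no list apart.

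The most crowded members overlapped all 11 other factors, as 16 did (0.455%, against 0.670% of shared peaks). Of these the 5 farthest from Gfi1b were chr17:89173581-89173980 in Fshr, 521.3 kb from the nearest Gfi1b peak, chr7:76099192-76099591 130.2 kb from Agbl1, chr3:28171324-28171723 38.2 kb from Pld1, chr12:83337807-83338206 in Dpf3 and chr3:79349323-79349722 in Gm17359. All 5 lay over 10 kb from a gene boundary. At the other end, the 5 members with no other factor that lay nearest to a boundary were within 0.027 kb of one, at Pank2, Snx27, Pcm1, Zfp626 and Map1lc3a, and the nearest Gfi1b peak to any of them was 105.1 kb away.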

How the data were processed

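ChIP-seq peak lists of 13 factors were analysed, 1 library each. Tools named in the submitters' processing notes are bedtools, Bowtie2 and MACS2, with builds mm10 and GRCm38, while their roles, versions and thresholds are not stated. The deposited values are the authors' peak positions (in base pairs) without score or count, so depth is unknown. Lists were taken on 19 autosomes and X, and 1 bp of overlap counted as shared or co-bound. Genes came from a RefSeq table of GRCm38.p6 without strand. The design preferred start sites where strand was known, but the promoter table held 79.9% of the 21627 coding genes and none on one chromosome, so distance is to either gene boundary and start sites became an alternative. Shares have Clopper-Pearson and differences Newcombe 95% intervals (Python 3.11.15, scipy 1.17.1). Only the Newcombe interval was tested on simulated data, which were independent counts, unlike neighbouring peaks. Means use a normal interval over peaks. Named genes were those nearest the most peaks of each class, every target, cofactor and factor gene, and up to 4 per other list. Named regions were the 5 members with most partners, the 5 partnerless ones nearest a boundary, and 3 either side of the overlap limit. Members and lists were chosen with earlier results of these data known, and splits by file position, near and distant, GC and partners, and the peaks detailed at loci, after values were seen.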

Additional observations from a re-analysis of the deposited data

Results flagged for a closer look

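The contrast between Gfi1 peaks without and with Gfi1b differed between gene ends and elsewhere. The difference in share within 1 kb of a boundary exceeded that beyond it by 15.0 percentage points for Runx1, 9.60 for Fli1 and 7.91 for Cebpa. Each interval left out 0 when widened for 11 factors. For Cebpb (6.59 points, 1.33 to 11.9), Lmo2 (6.24 points, 0.978 to 11.5), Spi1 (5.77 points, 0.422 to 11.1) and Meis1 (3.97 points, 0.669 to 7.32) only the interval without widening did.

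The relation between partners and the Gfi1 core differed between members and shared peaks. Between promoter windows with and without other factors, the share holding AATC differed by -18.3 points more at members than at shared peaks, and that holding AAATCA by -33.4 points more (-53.8 to -12.8). These rest on 33 member windows without a partner, and the part of GC content in them was not tested.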

How the results depend on the processing

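Of 243 recalculations over 46 results, 156 kept their direction and their side of the threshold or, for counts, stayed within 1.5 times, and 15 changed sign with no interval leaving out 0. File position moved most. In the first 50% of the Gfi1 list there were 813 members, in that of every list 1664. The mean number of other factors then differed by 0.74 and 0.51, and by 0.45 weighted to file position (alternative added after seeing the data), with the sign turned. In the same 3 settings the signs turned, and the intervals left out 0, for Cebpa (7.95, 3.24 and 4.19 points), Lmo2 (3.83, 4.80 and 4.24) and Tal1 (7.97, 8.62 and 5.15), and for Cebpb in the first and last (7.92 and 3.26; 2.90 in the second, including 0). Gata2 (0.559, 0.366 and 0.166) and Spi1 in the first and last (2.13 and 1.47) turned with intervals that include 0. Differences that came to leave out 0 were Fli1 (8.95, 8.93 and 7.72), Lyl1 (11.6, 12.1 and 6.92) and Runx1 (11.4, 3.79 and 5.95). Meis1 no longer did (-2.82, -1.69 and -1.81). Members inside a gene were 1.51 and 2.16 points more frequent in the first 2 settings and 1.73 with all genes of the reference, intervals that include 0. Over 1 kb from a boundary Gata2 (-0.767), Lyl1 (2.76) and Spi1 (-2.43) came to leave out 0. For motifs this held for Gata in the first 50% of the Gfi1 list (9.79 points) and for CGGAAG with a 150 bp overlap of the window (6.56 points, added after seeing the data). Coding loci with a member, 5958 at 50 kb, were 1745 in the first 50% and 2935 with 10 kb either side, and 34 counts of single gene lists moved by over 1.5 times. The causes were not tested. The overlap of 200 bp, members over 1 kb from Gfi1b, autosomes alone, windows of 0.5 and 5 kb, co-binding by 200 bp and the mean without Spi1 moved no result across the threshold, though differences that included 0 changed sign for Tal1 with co-binding by 200 bp (0.132) and for Runx1 with members over 1 kb from Gfi1b (-0.142).

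Motifs in windows over 1 kb from a boundary were not run, since no genome sequence was used here. No paired analysis was possible because each factor has 1 library. With no depth or replicate, counting error alone is covered: neither a second culture, nor another antibody lot, nor a peak just under the calling limit. Neighbouring peaks share loci, and only promoters have sequence.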

Other observations

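Chromosome X stood apart. Of its 107 Gfi1 peaks, 22 lacked Gfi1b (20.6%, 13.4% to 29.5%), where autosomes ranged from 33.1% to 41.6% and averaged 37.3%, a difference of -16.7 points (-23.3 to -8.03). In the first 50% of the file the shares were 8.70% on X and 17.2% on autosomes, and in the remainder 29.5% and 57.4%. This chromosome was singled out after its value was seen.

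Few members lay at microRNA genes. Within 1 kb of the 1005 hairpins of the RefSeq table there were 9 members (0.256%) and 15 shared peaks (0.251%). One, at chr8:84207830-84208229, lay 0.288 kb from the cluster of Mir23a, Mir27a and Mir24-2 and overlapped 9 other factors, and one, at chr11:75173088-75173487, lay on Mir132 and Mir212 and overlapped 2.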
